A study of Homo sapiens with 4 samples.

Results

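Genes that move calcium across the membranes of Jurkat cells, a long-established human cell line from a T-cell acute lymphoblastic leukemia, were followed in ORM (one-round migration) cells and control cells. They comprise the pumps that export calcium or refill its stores (ATP2B1, ATP2B4, ATP2A2, ATP2A3 and ATP2C1), the store release channel gene ITPR1, and the genes of entry (ORAI1, STIM1, STIM2 and PIEZO1). Members were the probe sets whose platform gene symbol is one of these 10 symbols. The symbols were selected on their role in calcium transport with the ORM and control values of these same arrays already known. Their differences are therefore given as a description, with no test. Of the 10 genes, 9 had a probe set under their symbol, with 1 probe set each, so 9 of 17687 named genes (9 of 21448 probe sets) were followed. STIM1 was not listed among the annotated probe sets, and its RNA was not analysed here.

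RNA was measured on human Clariom S arrays, which read 1 sample each. There were 2 ORM arrays, from cells collected below 3 μm pores after 24 h, and 2 control arrays, from cells that had not migrated. The labels call the samples biological replicates and the control cells a plain suspension culture. The description field of the labels gives other treatments for all 4 samples, so groups were taken from titles and sources, which match the series design. All values come from this single line, kept in culture in serum-containing medium. For transwell chemotaxis, the supplementary methods load cells in serum-free medium above medium with serum. If the ORM cells were made that way, serum exposure and migration cannot be told apart here. In these bulk samples, fewer cells expressing a gene and less RNA per cell cannot be told apart. Of 10 T cell marker genes, 9 lay above the median signal of the arrays, and the mean log2 signal of all 10 was 9.48 to 9.56 in each array. CD2 lay below that median. Above it also lay 3 of 4 measured B cell genes and 3 of 7 genes of epithelium and fibroblasts. The same held for 1 of 6 myeloid and 0 of 3 erythroid genes, so a signal above the median is not particular to T cell genes. None of the marker genes of B cells, myeloid cells, erythroid cells, epithelium and fibroblasts was called altered, although the B cell gene CD79A was bright in every array (9.69 to 10.25). Control replicate 2 stood apart. The SD of the log2 difference over all probe sets was 0.44 and 0.45 between it and the ORM arrays, 0.40 between it and control replicate 1, and 0.25 between both ORM arrays. Control replicate 1 was nearer to the ORM arrays (0.29 and 0.34) than to its own replicate.

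Resting T cells keep their cytosolic calcium low. The ATP2B pumps of the plasma membrane expel it, the ATP2A pumps return it to the endoplasmic reticulum, and ATP2C1 loads the Golgi apparatus. When an antigen receptor signals, inositol trisphosphate opens the ITPR channels, the store empties, and the STIM proteins of its membrane open the ORAI channels of the plasma membrane, through which calcium reaches calmodulin, calcineurin and the NFAT factors. PIEZO1 is a separate path, a cation channel that opens when the membrane is stretched.

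The start regions of 3 members are printed because these 3 were higher in both ORM arrays than in both control arrays with a mean difference larger than the gap within either group. Each is the 250 bases before the annotated start of the gene (RefSeq, GRCh38.p14). Genes can have other starts, which were not examined, and the arrays do not measure promoters. Capitals mark each match to the GC box letters GGGCGG or to CCAAT, on either strand.

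ATP2B1 (chr12:89709367-89709616, - strand): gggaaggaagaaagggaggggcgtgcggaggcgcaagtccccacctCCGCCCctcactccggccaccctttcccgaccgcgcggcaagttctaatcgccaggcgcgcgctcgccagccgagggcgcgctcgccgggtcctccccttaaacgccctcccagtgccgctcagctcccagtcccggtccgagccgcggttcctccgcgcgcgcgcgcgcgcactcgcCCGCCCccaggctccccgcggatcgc

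ATP2A2 (chr12:110280366-110280615, + strand): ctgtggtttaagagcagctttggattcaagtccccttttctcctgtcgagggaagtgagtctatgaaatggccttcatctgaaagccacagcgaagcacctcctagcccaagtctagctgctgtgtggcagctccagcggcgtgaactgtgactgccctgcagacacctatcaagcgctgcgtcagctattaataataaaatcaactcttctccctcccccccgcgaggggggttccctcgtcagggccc

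STIM2 (chr4:26860591-26860840, + strand): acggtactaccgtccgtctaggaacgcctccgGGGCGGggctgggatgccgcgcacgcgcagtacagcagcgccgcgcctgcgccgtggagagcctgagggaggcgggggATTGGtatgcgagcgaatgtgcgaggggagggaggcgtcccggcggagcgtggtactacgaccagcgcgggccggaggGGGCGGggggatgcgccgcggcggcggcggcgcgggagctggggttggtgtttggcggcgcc

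Start regions were found for 8 of the 10 genes, among them STIM1, which has no array value here, but not for ORAI1 and ATP2A3. The GC box was present in 5 of these 8 (ATP2B1, ATP2B4, STIM1, STIM2 and PIEZO1), against 42.3% of all 27305 start regions of this length. ATP2B1 and STIM2 had 2 matches each and STIM1 had 8. The CCAAT letters were found in 1 of the 8, STIM2, against 33.0% of all. The window of ATP2A2 held neither, and its GC content was 54.8%, beside 75.2% for ATP2B1 and STIM2 and a median of 58.0% over all windows. The NFAT core letters GGAAAA were found in ATP2B4 and ATP2C1 only, against 21.4% of all. The letters TGACGTCA (cAMP response element) and CACGTG (E box) were found in none of the 8 windows and in 1.77% and 6.49% of all. A match is a run of letters, and none of these counts describes binding.

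Among the members, the plasma membrane pump gene ATP2B1 and the store pump gene ATP2A2 had the largest differences, both higher in ORM cells. STIM2 was also higher, ORAI1 was lower, and ATP2A3, ATP2B4, ATP2C1, ITPR1 and PIEZO1 differed by less than the larger gap between replicates. In 5 of the 9 genes both ORM arrays lay above both control arrays, as in 21.4% of all probe sets, and in 1 of the 9 both lay below, as in 24.2% of all. In 4 of the 9 the mean difference exceeded the larger gap between replicates of a group, as in 31.9% of all. Calls followed the threshold that the study states for its arrays, here with limma: over 1.8-fold, with an unadjusted p under 0.05. This held for 1 member, ATP2B1, and for 0.704% of all probe sets (0.424% higher and 0.28% lower). Nothing is read from these counts, since the members were picked with this contrast known.

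**Figure D1:**
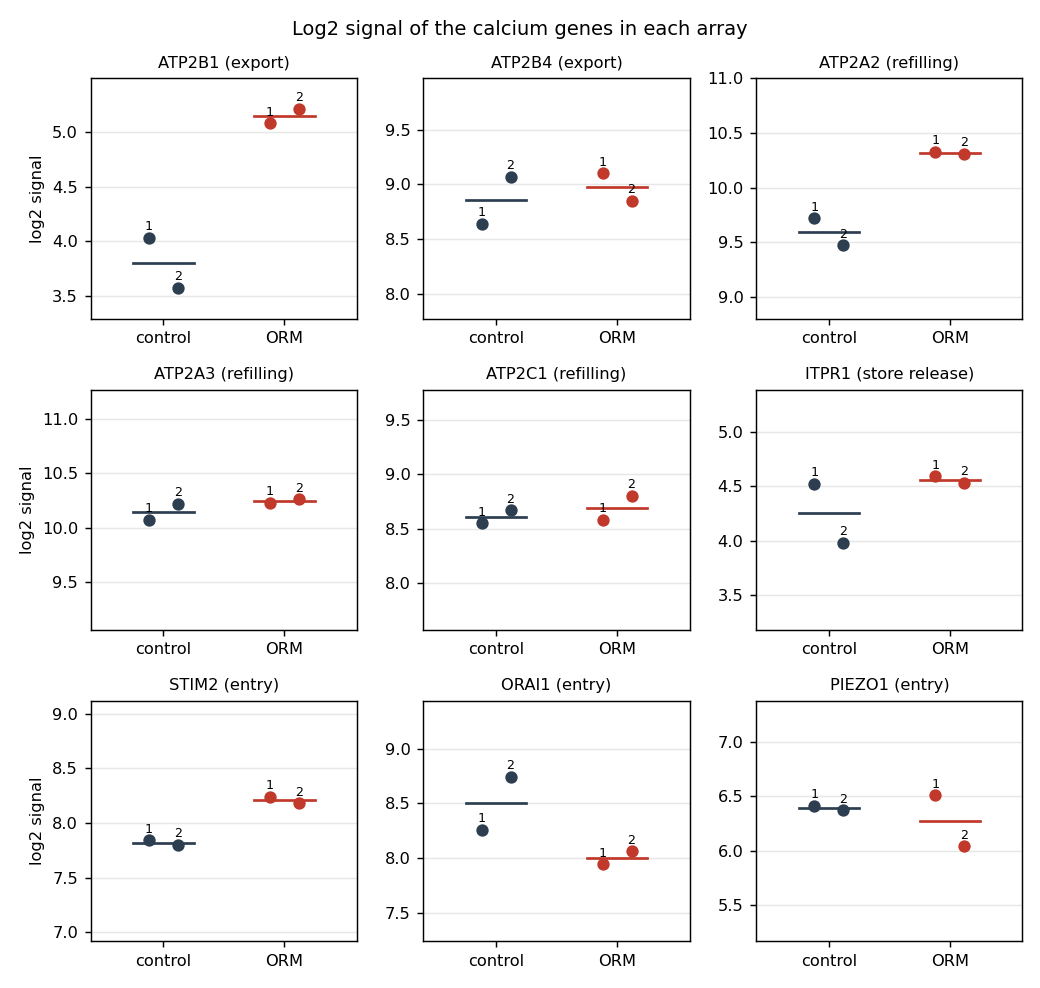
Log2 signal (vertical axes, each spanning the same number of log2 units) of the 9 measured calcium genes in the control arrays (dark) and the ORM arrays (red). Points are single arrays with their replicate number and lines are means of 2 arrays; ATP2B1 and ATP2A2 separate the groups most, while ATP2B4, ATP2C1 and PIEZO1 overlap.

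Export was represented by ATP2B1 and ATP2B4. ATP2B1, the plasma membrane calcium pump found in most cell types, had log2 signals of 5.08 and 5.21 in the ORM arrays, against 4.03 and 3.57 in the control arrays. Both ORM arrays lay well above both control arrays, and the lower of the controls was control replicate 2. Means were 5.15 ± 0.09 (SD, n = 2) and 3.80 ± 0.33 (SD, n = 2), a log2 difference of 1.35 (standard error of limma 0.20) or 2.54-fold. It ranked 2 of 21448 probe sets when these were ordered from the most positive difference. The gene is dim: across the arrays its signal lay between the 13.3 and 40.0 percentiles of all probe sets, and the part that background correction plays at such weak signals was not tested. The difference was 1.12 against control replicate 1 alone and 1.58 against control replicate 2 alone. It was 1.46 after quantile normalization and 1.40 after each array was centred on its median.

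ATP2B4, the other plasma membrane pump of the group, gave a different picture. Its log2 signals were 9.10 and 8.85 in the ORM arrays, against 8.64 and 9.07 in the control arrays, so the groups overlapped. The log2 difference was 0.12 (standard error 0.21), below the gaps of 0.25 between the ORM arrays and 0.43 between the control arrays. It was 0.01 after quantile normalization, and it turned to -0.10 without control replicate 1. All 4 arrays placed ATP2B4 among the brighter probe sets, between the 87.4 and 91.3 percentiles.

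Refilling was represented by ATP2A2, ATP2A3 and ATP2C1. ATP2A2, the store pump that most tissues use, had log2 signals of 10.33 and 10.31 in the ORM arrays, against 9.72 and 9.47 in the control arrays. The ORM arrays were almost equal and both stood above the controls. Means were 10.32 ± 0.01 (SD, n = 2) and 9.60 ± 0.18 (SD, n = 2), a log2 difference of 0.73 (standard error 0.17), or 1.65-fold, which is under the fold threshold of 1.8. It was 0.60 against control replicate 1 alone and 0.85 against control replicate 2 alone. In each of these settings 1 control array is left, which is assumed to vary as the ORM arrays do. Both scalings kept the direction, at 0.63 and 0.78.

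ATP2A3, the store pump typical of blood cells, was bright (the 97.0 to 97.5 percentiles) and hardly differed between groups. Its log2 signals were 10.23 and 10.26 in the ORM arrays, against 10.07 and 10.22 in the control arrays. The ORM arrays lay above both controls, but by only 0.01 over control replicate 2. The log2 difference was 0.10 (standard error 0.16), and 0.02 after quantile normalization. ATP2C1, the calcium and manganese pump of the Golgi, had 8.58 and 8.80 in the ORM arrays, against 8.55 and 8.67 in the control arrays. These ranges overlapped, and the log2 difference of 0.08 (standard error 0.17) changed sign to -0.02 after quantile normalization.

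Entry was represented by ORAI1, STIM2 and PIEZO1. ORAI1, which forms the pore of the store-operated channel, had log2 signals of 7.94 and 8.06 in the ORM arrays, against 8.26 and 8.74 in the control arrays. It was the member with both ORM arrays below both controls, and control replicate 2 was the highest array. Means were 8.0 ± 0.08 (SD, n = 2) and 8.50 ± 0.34 (SD, n = 2), a log2 difference of -0.50 (standard error 0.21), or 1.41-fold higher in control cells. Without control replicate 2 the difference was -0.26, and without control replicate 1 it was -0.74. After quantile normalization and after median centring it was -0.58 and -0.45.

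STIM2, a calcium sensor in the store membrane that opens ORAI channels, moved the other way. Its log2 signals were 8.24 and 8.18 in the ORM arrays, against 7.84 and 7.80 in the control arrays. Replicates of both groups lay close together, and the ORM arrays were higher. Means were 8.21 ± 0.04 (SD, n = 2) and 7.82 ± 0.03 (SD, n = 2), a log2 difference of 0.39 (standard error 0.16), or 1.31-fold. In contrast to ORAI1, the value hardly depended on which control array was used: 0.37 against control replicate 1 and 0.41 against control replicate 2. It was 0.31 after quantile normalization and 0.44 after median centring, shifts that are larger than the small spread of its replicates.

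PIEZO1, the stretch-activated channel, had log2 signals of 6.51 and 6.04 in the ORM arrays, against 6.41 and 6.37 in the control arrays. The ORM arrays lay on either side of the controls, ORM replicate 1 above them and ORM replicate 2 below. The log2 difference was -0.12 (standard error 0.20), less than the gap of 0.47 between the ORM arrays, and it turned to 0.12 without ORM replicate 2. With 2 arrays a group, neither a small increase nor a small decrease of PIEZO1 was detectable.

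ITPR1, the release channel gene, had log2 signals of 4.59 and 4.53 in the ORM arrays, against 4.52 and 3.98 in the control arrays. Control replicate 1 was nearly level with the ORM arrays, and the difference came from control replicate 2. The log2 difference was 0.31 (standard error 0.22) in all, 0.04 against control replicate 1 alone and 0.58 against control replicate 2 alone. ITPR1 was a dim gene, at the 20.5 to 30.8 percentiles.

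**Figure D2:**
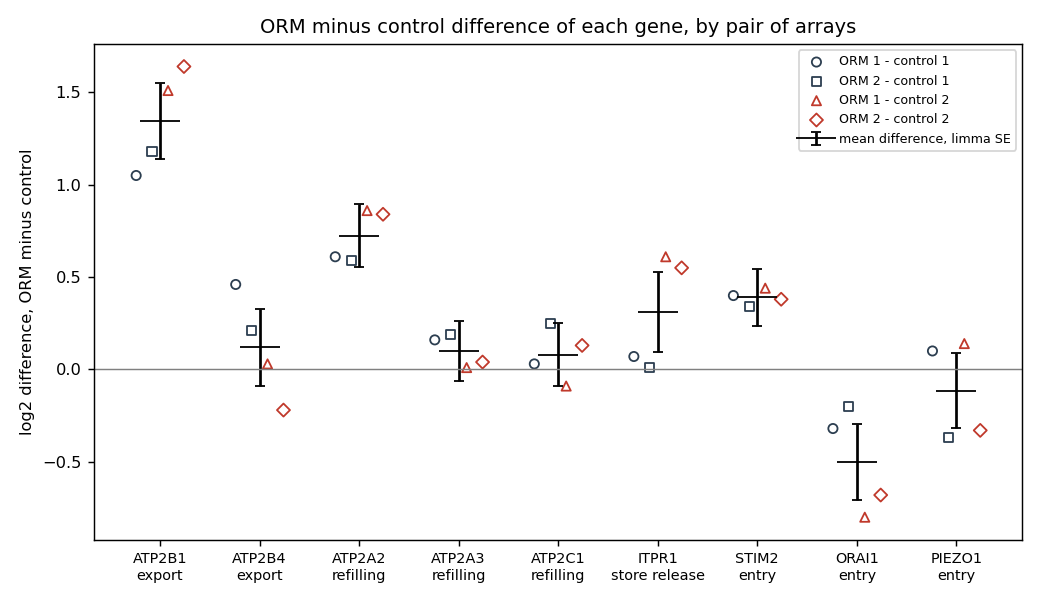
Log2 difference between ORM and control arrays (vertical axis) of the 9 genes. Open symbols are the 4 pairs of 1 ORM and 1 control array (dark for control replicate 1, red for control replicate 2), and black bars are the mean difference with the standard error of limma; all 4 pairs are above 0 for ATP2B1, ATP2A2, ATP2A3, ITPR1 and STIM2 and below 0 for ORAI1.

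Entry was then set against export and refilling, as the difference between the median log2 differences of both sets of genes. The median of the 3 entry genes was -0.12, with a range from -0.50 (ORAI1) to 0.39 (STIM2). The median of the 5 export and refilling genes was 0.12, with a range from 0.08 (ATP2C1) to 1.35 (ATP2B1). Over all 21448 probe sets it was -0.04. Entry minus export and refilling was therefore -0.24. By pair of arrays this value was -0.36 (ORM replicate 1 against control replicate 1), 0.11 (ORM replicate 1 against control replicate 2), -0.45 (ORM replicate 2 against control replicate 1) and -0.46 (ORM replicate 2 against control replicate 2). Between arrays of the same group it was 0.09 (ORM) and 0.16 (control). The pairs did not share a sign, and the value was -0.02 when ITPR1 was counted with entry and -0.55 with means in place of medians. No shift of entry as a group against export and refilling as a group can be read from these arrays. Within export, ATP2B1 had a larger difference than ATP2B4, and within entry, STIM2 and ORAI1 had opposite signs. This describes genes picked with the contrast known, and no member was tested against another.

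Other genes of the same families were compared with the members. In the plasma membrane pump family, ATP2B2 and ATP2B3, which are known mainly from nerve and muscle cells, had log2 differences of -0.36 and -0.29 (standard errors 0.16 and 0.19), against 1.35 for ATP2B1. ATP2B2 was 6.32 and 6.14 in the ORM arrays, against 6.63 and 6.56 in the control arrays. ATP2B3 was 6.83 and 6.63 against 7.18 and 6.87. In both genes the ORM arrays lay below the controls, and every signal was brighter than that of ATP2B1 in any array (3.57 to 5.21). Whether signals of different probe sets rank the RNA amounts of these genes was not tested. In the store pump family ATP2A1, the pump of fast skeletal muscle, had a log2 difference of 0.24 (standard error 0.16). Its signals were 6.72 and 6.70 in the ORM arrays, against 6.52 and 6.42 in the control arrays. ATP2C2, the other Golgi pump, had 0.02. ORAI2 and ORAI3, the remaining channel subunits, had -0.04 and -0.10 (standard errors 0.23 and 0.21), with overlapping groups in both. ITPR2 and ITPR3 had -0.27 and -0.23 (standard errors 0.17 and 0.26), opposite in sign to ITPR1, and PIEZO2 had -0.16 (standard error 0.17). None of these 9 genes was called.

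**Figure D3:**
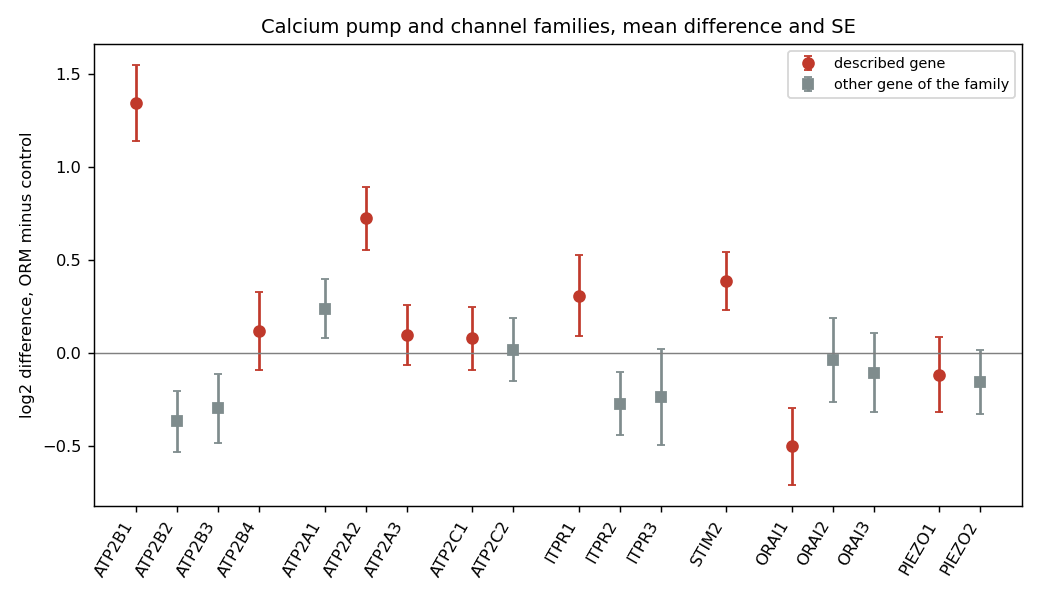
Mean log2 difference between ORM and control arrays (vertical axis) with the standard error of limma for each measured gene of the pump and channel families, from 2 arrays a group. Red circles are the described genes and grey squares their paralogs; ATP2B1 and ATP2A2 stand highest and ORAI1 lowest.

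The wider pathway was taken as 9 lists of other calcium genes, 182 in all, of which 158 had a probe set under their symbol. The chemokine gene XCL1 was called, lower in ORM cells, and 0 were called higher. This is 1 of 158, beside 0.704% of all probe sets. An unadjusted p under 0.05 from limma was reached by 8 genes on the higher side and 12 on the lower side, or 20 of 158, against 5.91% and 5.5% of all probe sets. With limma's p adjusted over all 21448 probe sets, 0 of the 158 genes and 0 of all probe sets were under 0.05 (lowest 0.428), while 2447 of all probe sets had an unadjusted p under 0.05. Both ORM arrays lay above both controls in 39 of the 158 genes, beside 21.4% of all probe sets, and below in 28, beside 24.2% of all. The median log2 difference over the 158 was -0.01, close to the -0.04 of all probe sets.

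Among genes that act on stores, the list of store and Golgi refilling had a median log2 difference of 0.15 over 15 genes, with 0 called. Both ORM arrays lay above both controls in 7 of them and below in 3, beside 21.4% and 24.2% of all probe sets. The list pools pumps and calcium-binding proteins with the pump inhibitors PLN and SLN, so its median is no measure of refilling. CALU, a calcium-binding protein of the secretory pathway, was 10.10 and 10.25 in the ORM arrays, against 9.71 and 9.53 in the control arrays, a log2 difference of 0.56 (standard error 0.17, adjusted p = 0.428 from limma). The groups of CALU did not overlap. Store release and leak had a median of 0.01 over 18 genes (-0.01 after quantile normalization, 0.06 after median centring and 0.08 without control replicate 2), with 0 called. TPCN2, an ion channel of endolysosomes, had the smallest p in that list, with 7.25 and 7.20 against 6.82 and 6.68. Mitochondrial calcium genes had a median of 0.17 over 13 genes and 0 called, and VDAC2, a channel of the outer mitochondrial membrane, had a log2 difference of 0.40 (standard error 0.16). MCU, the pore of the mitochondrial uniporter, had 8.57 and 8.52 in the ORM arrays, against 8.58 and 8.51 in the control arrays, so its means were equal; it is named outside the rule for named genes, after its values were seen.

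The lists of export and entry hold genes that are not all of the plasma membrane. The list of exchangers and other export genes had a median of -0.24 over 12 genes, -0.15 after quantile normalization, with 0 called. The smallest p there was that of SLC24A5, a sodium and calcium exchanger known from pigment cells, which was dim (4.07 and 4.13 against 4.36 and 4.90). The list of store-operated entry genes had a median of 0.15 over 15 genes, 0.08 after quantile normalization and 0.03 without control replicate 2, with 0 called. SEPTIN4, a septin of the membrane cytoskeleton, was 5.12 and 5.11 against 5.63 and 5.61 at the brighter of its 2 probe sets. ORM was the lower group there, and the other probe set is not given here. Other entry channels had a median of -0.10 over 40 genes, -0.05 after quantile normalization, -0.04 after median centring and -0.06 without control replicate 2, with 0 called. MCOLN2, a cation channel of endolysosomes, had a log2 difference of -0.71 (standard error 0.17, adjusted p = 0.428 from limma) at signals of 2.99 and 2.95 against 3.58 and 3.78, all dimmer than the lower quartile of any array (4.14 to 4.26).

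Calcium entry in T cells needs a negative membrane potential, which potassium channels maintain. The list of membrane potential channels holds potassium channels and TRPM4, which is another kind of cation channel. The 7 measured genes of the list had a median of -0.24 (from -0.815 to 0.62), with 0 called. Both ORM arrays lay above both controls in 1 of them and below in 2, beside 21.4% and 24.2% of all probe sets. KCNN4, the calcium-activated potassium channel of lymphocytes, was 6.16 and 6.11 in the ORM arrays, against 6.68 and 6.70 in the control arrays, a log2 difference of -0.56 (standard error 0.16, adjusted p = 0.428 from limma). Its replicates were close together, the groups did not overlap, and the value without control replicate 2 was -0.55. KCNK5 of the same list differed in the other direction, with 7.14 and 7.31 in the ORM arrays against 6.41 and 6.80 in the control arrays. Its log2 difference was 0.62 (standard error 0.195), and it is named outside the rule for named genes.

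Downstream of entry, calmodulin, calcineurin and NFAT genes had a median of 0.02 over 25 genes (0.07 after median centring and -0.02 without control replicate 2), with 0 called. CAMK1D, a calmodulin-dependent kinase, was 5.71 and 5.66 in the ORM arrays, against 4.95 in both control arrays, a log2 difference of 0.74 (standard error 0.16, adjusted p = 0.428 from limma). That is a fold change under 1.8, and it was 0.74 without control replicate 2 as well. Genes that respond to calcium and NFAT had a median of -0.14 over 13 genes, -0.09 after median centring and -0.08 without control replicate 2. XCL1, a chemokine made by activated T cells, was 3.63 and 3.47 in the ORM arrays, against 4.24 and 4.85 in the control arrays, a log2 difference of -0.995 (standard error 0.23, adjusted p = 0.428 from limma). Both ORM signals were dimmer than the lower quartile of any array. XCL1 has a near-identical copy in the genome that a probe set may also read. Without control replicate 2 its difference was -0.69 and it was no longer called. Without control replicate 1, where a single control array is left, more genes were called, both among the 158 and over all probe sets.

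**Figure D4:**
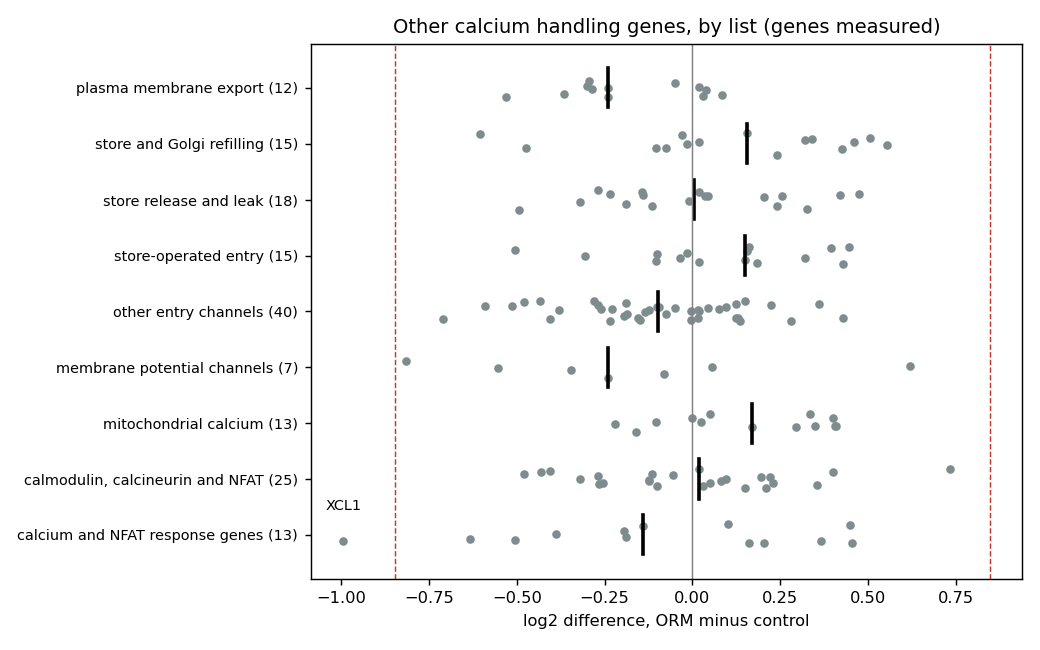
Log2 difference between ORM and control arrays (horizontal axis) of 158 other calcium genes in 9 lists, with the number of genes measured in brackets. Points are genes, placed at random heights within a list, black bars are list medians and dashed lines a fold change of 1.8; XCL1 is the gene outside the lines.

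The genes whose 4 values were most like those of ATP2B1, each gene centred on its own mean over the 4 arrays, were SERHL, WDR73 and RBM28, at Euclidean distances of 0.17, 0.18 and 0.19 on the log2 scale. SERHL, a serine hydrolase-like gene, had 7.02 and 7.05 in the ORM arrays, against 5.97 and 5.30 in the control arrays. WDR73 had 7.17 and 7.44 against 6.26 and 5.92, and RBM28, a nucleolar protein gene, had 7.83 and 8.01 against 6.95 and 6.56. In all 3, as in ATP2B1, control replicate 2 was the lowest array, which follows from how they were picked. This likeness rests on 4 arrays.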

How the data were processed

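RNA of Jurkat cells was measured in 2 ORM and 2 control samples, each on 1 Clariom S array. The deposited values are log2 signals per probe set, which the authors had processed, normalized and log2 transformed. RMA and Transcriptome Analysis Console are named in the submitters' processing notes, without versions. The background setting is not given in the sources used here. Values were taken from the deposited table alone, not from scanner output. RNA extraction is described differently in the labels (TRI reagent) and in the supplementary methods (a column kit).

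All 21448 probe sets were fitted by lmFit and eBayes of limma 3.58.1 (R 4.3.3), ORM minus control, with no filter on dim probe sets and Benjamini-Hochberg adjustment over all of them. Where a gene has several probe sets the brightest was used. Platform annotation gave 1 symbol for 17709 probe sets and listed none for 3739, and 0 symbols changed against RefSeq (GRCh38.p14). The fit was tested on simulated data with independent errors and no array effects. That test cannot address how control replicate 2 stood apart. With 2 arrays a group, p-values reflect no more than the scatter of these arrays, and an exact two-sided permutation test cannot go below 0.333.

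The members and gene lists were chosen with earlier results of these data known. From each list the genes past the threshold with the smallest p (up to 2), or the 1 with the smallest p, were named. Paralogs of the members were added after values had been seen, and all that were measured are given. Alternatives were other scalings, a filter on dim probe sets, other variance settings, the methods' t-test (Student's), other thresholds, the replicate number as a block, the mean over probe sets and each array left out in turn.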

Additional observations from a re-analysis of the deposited data

How the results depend on the processing

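Over all probe sets, 151 were called (91 higher, 60 lower). The methods' t-test called 49, and 0 after adjustment; limma called 0 at an adjusted p under 0.05, where 2447 had an unadjusted p under 0.05. Fold changes over 1.5 and over 2 gave 941 and 66. Leaving out 1 array gave 100 (control replicate 2) to 1009 (control replicate 1), with 235 without ORM replicate 1. Median centring gave 165, with a different balance (123 higher, 42 lower). With the replicate number as a block 162 were called and 1 of the 158 other calcium genes, as without it; same-numbered arrays share only a number (correlation of their deviations 0.09).

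Of the 158 other calcium genes 1 was called. The count was 0 when genes with a mean log2 signal under 5 were left out, and 0 with the methods' t-test. It was also 0 with a fold change over 2 and with an adjusted p under 0.05 from either test. With a fold change over 1.5 it was 6, beside 941 of all 21448 probe sets. With 1 array left out it was lowest without control replicate 2 and highest without control replicate 1, as over all probe sets. Entry against export and refilling was -0.24, -0.55 with means and -0.54 (without ORM replicate 1) to -0.12 (without control replicate 1) with 1 array left out. It was below 0 in each of the 8 settings that could change it, but not in every pair of arrays. ATP2B1 was called at the study's threshold in each fit that held it, the methods' t-test included, and at fold changes over 1.5 and 2, but not at an adjusted p under 0.05 by limma or the t-test. Its mean is below 5, so the filtered fit did not hold it. Over the 9 members, 49 of 54 values kept their sign under the scalings and left-out arrays, and the other 5 were of ATP2B4, ATP2C1 and PIEZO1. The replicate block, the mean over probe sets and the filter cannot change these values. The number of arrays limits the precision throughout.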
